A study of Mus musculus with 18 samples.

Results

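Transcripts of the cytosolic ribosomal proteins were measured in astrocytes of the mouse primary motor cortex. A gene was counted as a member when its symbol was Rpl or Rps followed by a number, with at most 1 letter (a, l or x) after it, or was Rplp0, Rplp1, Rplp2 or Rpsa. The rule found 81 of the 23924 genes read, 49 of the large subunit and 32 of the small one. It leaves out Rps3a1, Fau and Gnb2l1, among others, which also encode parts of the ribosome or fusions to them, and these 3 are given beside the members. The study compared 3 groups of C57BL/6 mice of wild type: untrained mice (naive), mice with 3 days of training in a cued lever push task (novice) and fully trained mice (expert). The design text describes water restriction before training, and a drop of water was the reward for a push. Each group had 6 libraries, labelled as 2 female and 4 male. The labels give ages of 12 to 21 weeks for naive, 11 to 13 for novice and 13 to 15 for expert mice. The sources used here do not say how the astrocytes were separated from other cells or whether each library is a separate animal. The p-values therefore measure the spread between libraries.

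The cytosolic ribosome consists of a small subunit, which binds the mRNA and reads its codons, and a large subunit, which joins the amino acids. Each protein is normally present in 1 copy per ribosome, apart from the acidic P proteins of the stalk that recruits elongation factors. Mammalian ribosomal protein mRNAs are among the most abundant of the cell and typically begin with a C followed by a run of pyrimidines, the 5′ terminal oligopyrimidine (TOP) tract, through which the mTOR pathway sets their translation. In astrocytes, ribosomes are found in the cell body and also in fine processes near synapses.

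The start sites show this class feature. RefSeq promoter windows on build GRCm38.p6 were matched for 60 of the 81 members. A run of at least 8 bases, each C or T on the gene's strand, was sought within 25 bases of annotated starts. It was found for 32 of the 60 (53.3%), against 22.3% of all genes. A C at the start itself, followed by at least 4 more C or T, was found for 13 of the 60 (21.7%) and for 3.01% of all genes. These matches describe letters and depend on where RefSeq places the start. A gene was counted when any of its annotated starts matched, and the number of starts per gene was not compared. In the sequences below, the annotated start is preceded by 20 bases and followed by the first 15 bases of the transcript (counting the start base), and capitals mark the unbroken C or T run that begins at the start. Rps27, Rps21, Rps6, Rps18, Rps15a, Rpl15, Rpl38 and Rplp2 were picked from the members with such a run, as their values are discussed later. Rpl10l is shown as a member without one. The printed windows are therefore no sample of the 60 members, most of which have no such run.
Rps27 (chr3:90213634-90213668, minus strand): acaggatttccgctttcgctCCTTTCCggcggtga
Rps21 (chr2:180257359-180257393, plus strand): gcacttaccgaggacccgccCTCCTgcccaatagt
Rps6 (chr4:86857353-86857387, minus strand): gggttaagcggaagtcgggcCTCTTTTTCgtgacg
Rps18 (chr17:33955651-33955685, minus strand): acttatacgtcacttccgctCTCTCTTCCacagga
Rps15a (chr7:118116133-118116167, minus strand): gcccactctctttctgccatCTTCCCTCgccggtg
Rpl15 (chr14:18270972-18271006, minus strand): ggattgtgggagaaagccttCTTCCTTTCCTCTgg
Rpl38 (chr11:114668560-114668594, plus strand): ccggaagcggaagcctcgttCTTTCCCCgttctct
Rplp2 (chr7:141447631-141447665, plus strand): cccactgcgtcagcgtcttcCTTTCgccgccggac
Rpl10l (chr12:66284387-66284421, minus strand): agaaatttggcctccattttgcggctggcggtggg

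The deposited values are in FPKM, fragments counted per transcript length and per sequencing total. They hold no read counts, so the depth is unknown, and between 2257 and 5430 genes per library were listed at exactly 0. Libraries differed in the signal over 1578 genes of families not normally used by brain cells (olfactory, vomeronasal and taste receptors, keratin-associated proteins and beta defensins). Its mean, called the background here, was 0.307 to 3.34 FPKM in 10 libraries (Naive 1 to 4, Novice 1 and 2, and Expert 1, 2, 3 and 6). In the other 8 libraries (Naive 5 and 6, Novice 3 to 6, and Expert 4 and 5) it was 4.69 to 6.75 FPKM. The split, at 4 FPKM, was chosen after seeing these values. Bc1, a short noncoding RNA of neurons, held 6.01% to 59.6% of all FPKM. All 12 astrocyte markers were present in every library, with summed levels of 3031 to 7412 FPKM at lower and 1453 to 2210 FPKM at higher background. The 10 neuron markers, none at 0 in any library, summed to 322 to 1246 FPKM at lower and 136 to 332 FPKM at higher background. For Novice 1 and Novice 3 the transcripts of Xist and Ddx3y went against the labelled sex.

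Ribosomal protein transcripts were abundant, and most members stood at similar levels in both subunits. The median of the members' mean levels was 173 FPKM for the large and 174 FPKM for the small subunit. Of the 81 members, 62 had a mean of at least 100 FPKM, 8 of at least 500 FPKM, 10 under 50 FPKM and 5 under 10 FPKM. All 81 passed the filter on low values, a level of 1 FPKM or more in 6 or more libraries. As listed, without near-identical copies, the highest means belonged to Rplp1, an acidic protein of the stalk, at 820 FPKM, and to Rpl38, at 797 FPKM. Rpl38 is a large-subunit protein known for its part in the translation of Hox mRNAs. Rpl41, the smallest ribosomal protein, followed at 663 FPKM, and Rpl23a, which lies near the exit of the nascent chain, at 550 FPKM. In the small subunit, Rps21 stood at 655, Rps29 at 622, Rps27 at 603 and Rps15 at 502 FPKM. Summed with its copy, described below, Rps27 had means of 999.6 FPKM in naive, 848 FPKM in novice and 781 FPKM in expert libraries. Rpl26 and Rpl30, at 40.0 and 12.9 FPKM, count among the 10 under 50 FPKM, while their copies had means of 729 and 224 FPKM. The members with shorter annotated transcripts had higher levels per length: the median was 264 FPKM over the 25 shortest, 173 FPKM over the middle 25 and 129 FPKM over the 26 longest of the 76 members left once Rpl10l, Rpl3l, Rpl39l, Rps4l and Rps27l, which are paralogs of other members, were set aside.

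Proteins of 1 structure, which are needed in equal or near-equal numbers, did not have equal listed FPKM. Listed FPKM varied with annotated transcript length, and some members have near-identical copies listed separately. These values are therefore not read as relative numbers of transcripts. In the stalk, Rplp0, the anchor of the acidic proteins, had a mean of 55.9 FPKM and Rplp2 of 251 FPKM, beside the 820 FPKM of Rplp1. The 5S particle proteins Rpl5 and Rpl11, which also bind Mdm2 when ribosome assembly fails, had means of 99.99 and 212 FPKM. Rps6, the phosphorylated target of S6 kinase downstream of mTOR, stood at 127 FPKM, and Rpsa, also known as the laminin receptor, at 140 FPKM. Rps3, at the mRNA entry channel, stood at 50.8 FPKM, and Rps27a, made as a fusion with ubiquitin, at 182 FPKM. Of the genes outside the rule, Fau (fused to Rps30) had a mean of 244 FPKM, Rps3a1 of 229 FPKM and Gnb2l1 (the scaffold Rack1) of 41.5 FPKM.

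The 5 members under 10 FPKM included 3 tissue-restricted paralogs. Rpl10l, a testis paralog of Rpl10, had a mean of 3.69 FPKM beside 149 FPKM for Rpl10. Rpl3l, the form of striated muscle, stood at 1.77 FPKM beside 199.5 FPKM for Rpl3, and Rpl39l, another testis form, at 1.72 FPKM beside 277 FPKM for Rpl39. Rpl10l was at or below the library's background in 10 of 18 libraries, and Rpl3l and Rpl39l each in 16 of 18, so these levels are not read as expression in astrocytes. Rps4l, which GENCODE M21 annotates as a transcribed processed pseudogene, had a mean of 6.85 FPKM beside 118 FPKM for Rps4x. Rps27l, a paralog of Rps27 that p53 induces, stood higher, at 25.8 FPKM. The remaining member under 10 FPKM was Rps15a, a core protein of the small subunit, at 9.14 FPKM, between 4.17 FPKM (Expert 3) and 14.8 FPKM (Naive 6). Its 2 listed near-identical pseudogenes together had a mean of 10.6 FPKM and stood above it in 12 of 18 libraries. Summed with these pseudogenes, Rps15a stood at 8.74 to 32.8 FPKM (median 18.5), still below most members. Why its listed value is low was not tested, and it is not read as near absence of its transcript.

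The members moved together from library to library. The median over the 81 members was 191, 248, 231, 236, 95.0 and 85.6 FPKM in Naive 1 to 6. It was 229, 243, 123, 145, 95.0 and 96.96 FPKM in Novice 1 to 6, and 166, 246, 167, 79.9, 114 and 177 FPKM in Expert 1 to 6. Low and high libraries occurred in every group, and the 3 groups overlapped. All 10 libraries of lower background, at 166 to 248 FPKM, stood above all 8 of higher background, at 79.9 to 145 FPKM. As a share of all FPKM other than that of Bc1, the members made up 2.22% to 3.28% at lower and 1.15% to 2.14% at higher background. In bulk samples, fewer cells of a type and less RNA per cell cannot be told apart.

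**Figure D1:**
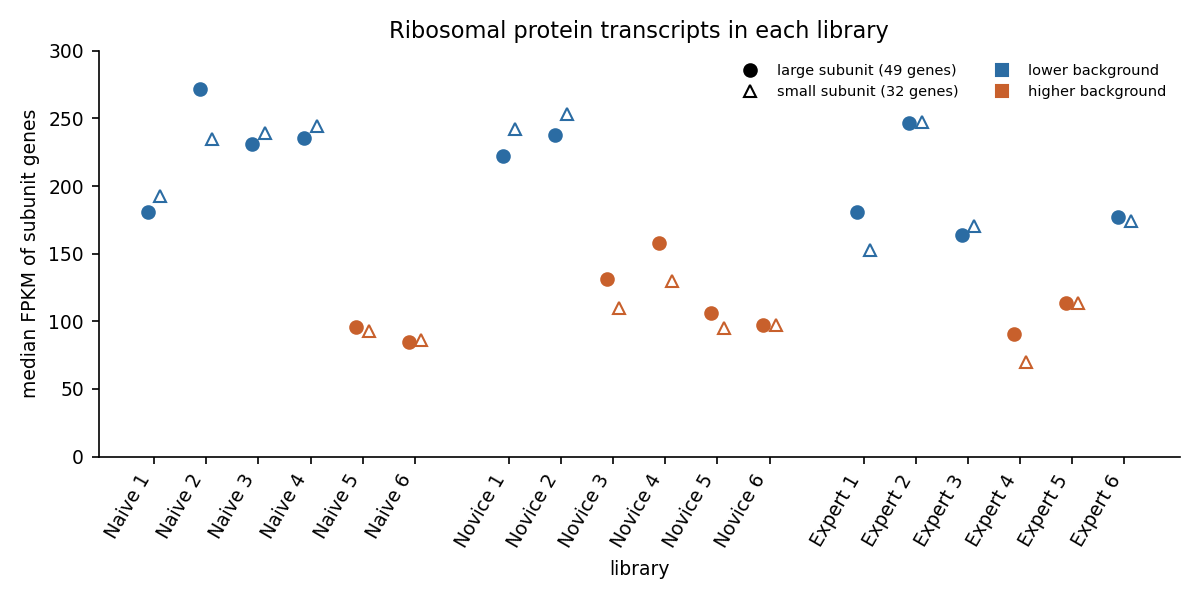
Median FPKM of the 49 large-subunit genes (filled circles) and the 32 small-subunit genes (open triangles) in each of the 18 libraries, by group and coloured by background. Both subunits stand higher in the lower-background libraries (blue) than in the higher-background ones (orange) within each of the 3 groups, and the symbols of 1 library lie close together.

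The subunits kept close to each other. The large-subunit median minus the small-subunit median, on the log2(FPKM + 1) scale, lay between -0.12 (Novice 1) and 0.37 (Expert 4). The naive libraries had a mean of 0.01 ± 0.11 (SD, n = 6), the novice ones 0.08 ± 0.18 and the expert ones 0.10 ± 0.17, and the groups overlapped. By background, the mean was 0.002 ± 0.13 in the 10 lower and 0.14 ± 0.15 in the 8 higher libraries, and these classes overlapped too. By comparison, the median over all members ranged from 6.34 to 7.96 on the same scale. After that library median was subtracted, the SD of a member over the 18 libraries had a median of 0.26, and it was under 0.5 for 70 of the 81. Rpl23a followed the others most closely (0.13). It was over 1 for 7 members: Rps27, Rpl26, Rpl30, Rpl10l, Rpl39l, Rpl3l and Rps27l. The first 3 of these are core proteins and are taken up next.

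Rps27, Rpl26 and Rpl30 had values that jumped between libraries of the same group. Rps27, a zinc-finger protein of the small subunit, was 1006, 1524, 1143, 1.45, 2.63 and 8.68 FPKM in Naive 1 to 6. In Novice 1 to 6 it was 1267, 1303, 669, 802, 7.74 and 1.95 FPKM, and in Expert 1 to 6 it was 4.30, 1199, 475, 9.22, 537 and 887 FPKM. The gene was thus at 475 FPKM or more in 11 libraries and under 10 FPKM in the other 7, with both kinds in each group. The table also lists Rps27rt, an intronless protein-coding copy. GENCODE M21, on build GRCm38, places Rps27 on the minus strand at chr3:90212522-90213651 and Rps27rt on the minus strand at chr9:114982366-114982739. The 2 annotated transcripts share 341 consecutive identical bases, which include the whole open reading frame of 255 bases. That frame is printed here once, all in lower case since no base of it differs between the genes, because a read from it does not tell them apart.
Rps27 and Rps27rt: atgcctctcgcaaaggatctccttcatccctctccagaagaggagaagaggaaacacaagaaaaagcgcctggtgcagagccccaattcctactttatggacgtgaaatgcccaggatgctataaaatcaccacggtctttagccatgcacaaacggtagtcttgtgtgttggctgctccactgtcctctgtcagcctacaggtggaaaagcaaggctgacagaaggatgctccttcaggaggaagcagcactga

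Where Rps27 was low, Rps27rt was high. In the 7 libraries with Rps27 under 10 FPKM, Rps27rt stood at 1384 (Naive 4), 366 (Naive 5), 561 (Naive 6), 514 (Novice 5), 498 (Novice 6), 837 (Expert 1) and 330 (Expert 4) FPKM. In Expert 3 both were present, at 475 FPKM for Rps27 and 394 FPKM for Rps27rt, and in the 10 remaining libraries Rps27rt was between 0.0803 and 14.8 FPKM. The sum of both genes was 339 to 1524 FPKM and followed the other members: its SD around the library median was 0.18, against 3.47 for Rps27 alone.

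Rpl26 and Rpl30 have near-identical processed pseudogenes in the table, which held most of the signal. Gm15772 is 99.5% identical to the Rpl26 transcript over 438 bases, and Gm12191 is 99.7% identical to that of Rpl30 over 348 bases. Rpl26, a large-subunit protein that also binds p53 mRNA, was listed between 0.00143 and 148 FPKM, while Gm15772 held 237 to 1347 FPKM and was above Rpl26 in 18 of 18 libraries. Rpl30 was listed between 0.00109 and 70.7 FPKM, and Gm12191, at 17.02 to 375 FPKM, was above it in 17 of 18, with Expert 4 the exception. Summing each pair brought the SD around the library median from 2.96 to 0.18 for Rpl26 and from 2.06 to 0.21 for Rpl30. For Rpl34, whose pseudogene Rpl34-ps1 is 99.4% identical, summing brought it from 0.47 to 0.25. It did not fall for Rps15a, with 0.79 alone and 0.81 with its pseudogenes Rps15a-ps4 and Rps15a-ps6, nor for Rpl29, with 0.49 and 0.57, or Rpl31, with 0.18 and 0.23. How the authors' software divided shared reads was not tested.

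**Figure D2:**
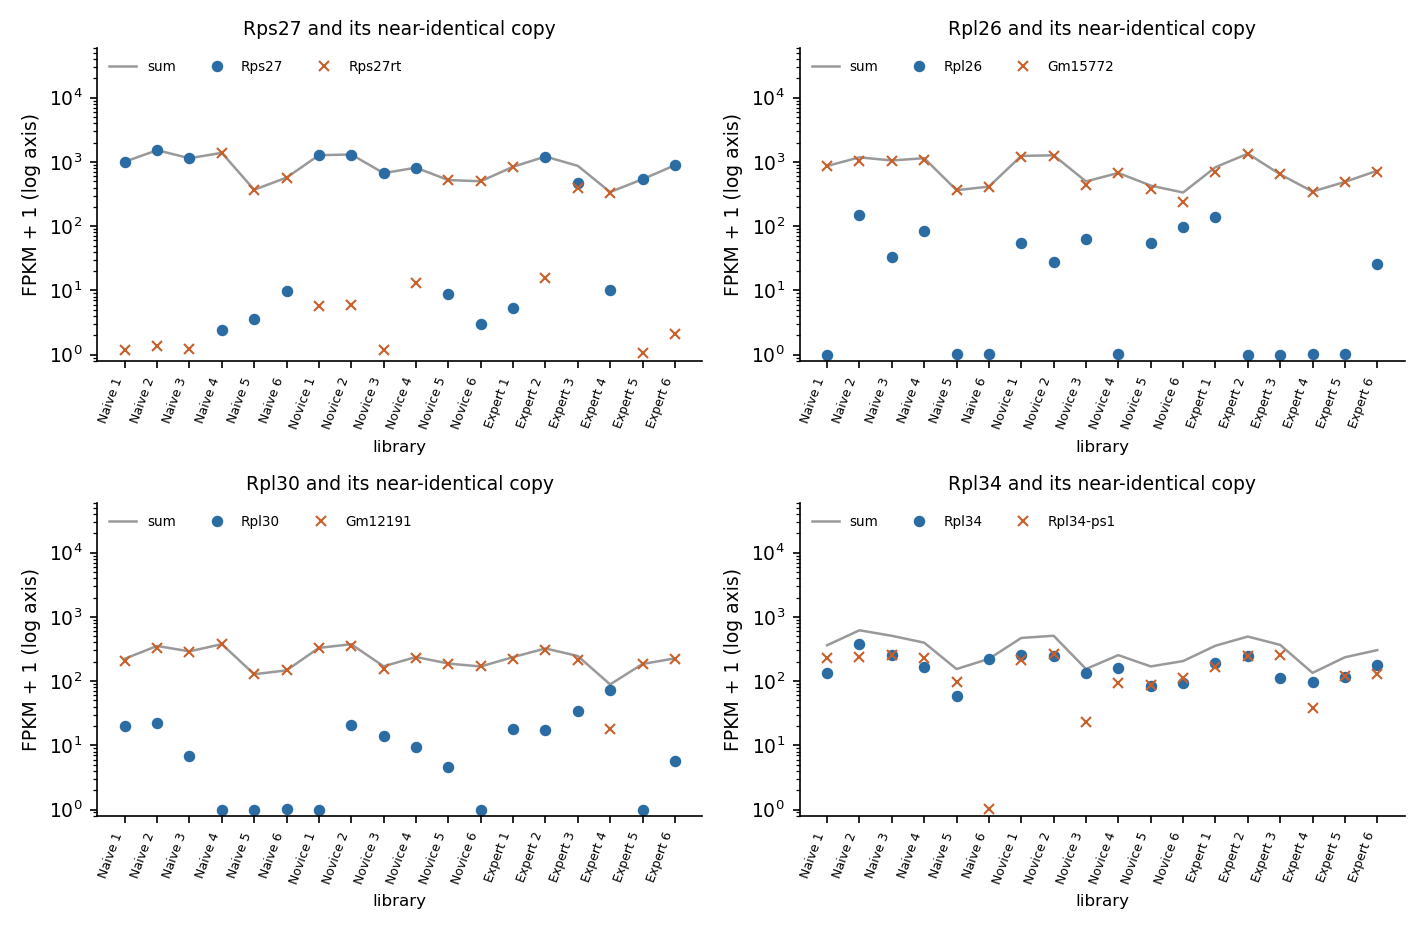
FPKM + 1 on a log axis in each library for Rps27, Rpl26, Rpl30 and Rpl34 (blue dots), the near-identical copy of each (orange crosses) and their sum (grey line). The sum of Rps27 and Rps27rt stays between 339 and 1524 FPKM while each gene alone falls below 15 FPKM in some libraries.

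Members differed in how far they fell short in the libraries of higher background. The log2 difference of class medians, higher minus lower background, had a median of -1.12 over the 81 members, -1.03 for the large and -1.18 for the small subunit. It was -0.80 over the 1036 genes of like abundance (mean log2 level between the 10th and 90th percentile of the members, 65 of them members) and 0.38 over all 21745 genes that passed the filter. The median over members was negative within each group, at -1.28 in naive, -1.08 in novice and -0.89 in expert libraries. For 34 of the 81 members all 8 higher-background libraries stood below all 10 lower-background ones (42.0%), against 5.89% of all genes and 38.7% of genes of like abundance. The reverse, all higher-background libraries above all others, held for 0 members, 6.73% of all genes and 18.8% of genes of like abundance. The background is a measure of the same libraries, so these values are given as a description with no test, and the part of cell makeup or RNA quality in them was not tested. Nuclear genes of oxidative phosphorylation had a median difference of -1.15, the astrocyte markers -1.13, the neuron markers -1.46 and the endothelial markers 0.02.

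Rps27, Rpl26 and Rpl30, whose near-identical copies are listed separately, had the largest differences (ratios of lower to higher background of 120, 1517 and 9.14). They are set aside here. Among the other members Rps21 differed most. It ranged from 507 to 1247 FPKM at lower background, with a median of 1068, and from 122 to 663 FPKM at higher background, with a median of 255, a ratio of 4.19. The ratio was 3.60 for Rps15, 3.32 for Rplp1 and 3.15 for Rpl13a, a protein with a second role in the silencing of inflammatory mRNAs. At the other end, Rpl7a was level, with medians of 187 FPKM at lower and 198 FPKM at higher background. Rpl29 had 238 and 210 FPKM, and Rpl15, a large-subunit protein, had 52.1 and 40.7 FPKM. The median was lower at higher background for 75 of the 81 members (92.6%), against 35.5% of all genes and 71.0% of genes of like abundance. The 6 exceptions were Rpl7a, Rps27l, Rps15a and the paralogs Rpl3l, Rpl10l and Rpl39l. Rps21, Rps15a and Rpl15 lie far apart in this difference. Their windows printed above were picked for having a C or T run, so they cannot show whether the run goes with the difference. That was not tested.

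**Figure D3:**
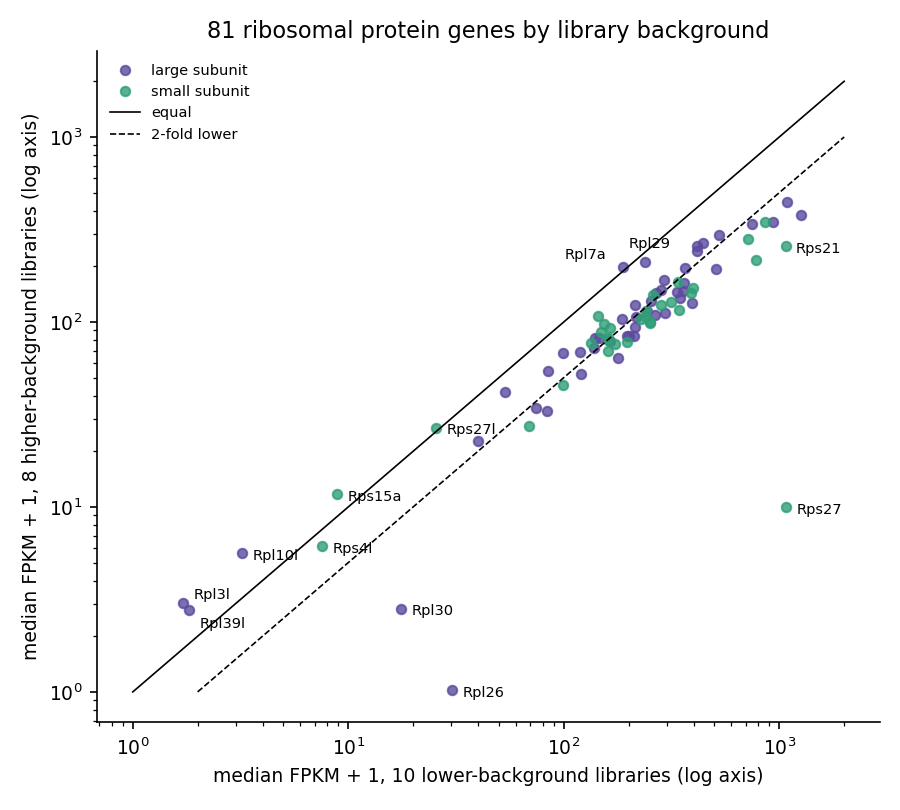
Median FPKM + 1 of each of the 81 members in the 10 lower-background libraries (horizontal, log axis) and the 8 higher-background libraries (vertical, log axis), with lines for equal and 2-fold lower values. Most genes of both subunits lie near the 2-fold line, Rpl7a and Rpl29 lie near equality, and Rps27, Rpl26 and Rpl30, which have near-identical copies, lie far below.

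The first comparison asks what differed after 3 days of training. No ribosomal protein gene passed the test. Most fitted means were a little lower in novice than in naive libraries, a direction that turned within each background class. By limma's moderated test with Benjamini-Hochberg adjustment over all genes, 0 of 81 members and 0 of 21745 genes (0%) were called, and the smallest adjusted p of a member was 0.89. The fitted mean was lower for 68 of the 81 members (84.0%), against 43.0% of all genes and 69.5% of genes of like abundance, and higher for 13 (16.0%), against 57.0% of all genes. The median log2 fold change was -0.17 for members, with -0.17 for the large and -0.19 for the small subunit, and -0.23 for genes of like abundance. The members' median was 0.07 in the lower class (4 naive and 2 novice libraries) and 0.31 in the higher class (2 and 4). It was -0.0028 with the background as a covariate and 0.11 in the higher class of a split at 2 FPKM. The classes do not equalize the background. In the higher class it was 6.70 to 6.75 FPKM in naive and 5.09 to 6.21 FPKM in novice libraries. Of the 6 novice libraries 4 are of higher background, against 2 of the 6 naive ones. All 12 astrocyte markers also had lower fitted means in novice libraries (median log2 fold change -0.59), as did 8 of the 10 neuron markers (median -0.18), none called, and their part in the members' values was not tested. No member had groups that did not overlap, against 0.129% of all genes.

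The members with the smallest p among the lower ones were Rps18, Rpl28, Rpl4 and Rpl15. Rps18, of the head of the small subunit, ranged from 141 to 297 FPKM (median 245) in naive and from 76.5 to 274 FPKM (median 151) in novice libraries. Novice 3, 5 and 6 lay below all naive libraries and Novice 1, 2 and 4 within their range, so the groups overlapped, and the log2 fold change was -0.48 (SE 0.35, adjusted p = 0.89, limma with Benjamini-Hochberg adjustment). Rpl28, a large-subunit protein at the surface, ranged from 162 to 430 FPKM (median 287) in naive and from 104 to 288 FPKM (median 183) in novice libraries, a log2 fold change of -0.49 (SE 0.37). Rpl4, at the exit tunnel, had -0.50 (SE 0.41) and Rpl15 -0.31 (SE 0.22), with overlapping groups. At an unadjusted p under 0.05 there were 0 members on the lower side (1.88% of all genes) and 1 on the higher side (1.23% of members, 2.72% of all genes).

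That member was Rps4l. It ranged from 2.56 to 6.99 FPKM (median 4.33) in naive, from 4.76 to 14.4 FPKM (median 7.52) in novice and from 4.57 to 12.0 FPKM (median 6.67) in expert libraries. Novice 3 and Novice 4 were the highest novice libraries and Expert 1 the highest expert one, and the groups overlapped. The log2 fold change was 0.77 in novice (SE 0.27, unadjusted p = 0.00928) and 0.58 in expert libraries (SE 0.27, unadjusted p = 0.0437), and with limma's Benjamini-Hochberg adjusted p = 0.89 and 0.9996 neither passed. Rps4l was at or below the library's background in 5 of 18 libraries.

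The second comparison asks what differed once training was complete. No member passed the test, and most fitted means were again a little lower in expert than in naive libraries, a direction that turned with 1 of the 4 other scalings and without Expert 4 (0 of 81 members and 0%, or 0 of 21745, of all genes by limma, with 0.9996 as the smallest adjusted p). The fitted mean was lower for 70 of the 81 (86.4%), against 56.1% of all genes and 53.0% of genes of like abundance, and higher for 11 (13.6%), against 43.9% of all genes. The members' median log2 fold change was -0.16, with -0.18 for the large and -0.13 for the small subunit, beside -0.02 for genes of like abundance. The median was 0.13 after rescaling each library to a common total, which includes Bc1, and 0.02 without Expert 4. With the other scalings it stayed negative, at -0.06 for a common total without Bc1, -0.20 after centring on abundant genes and -0.05 after quantile normalization. With the background as a covariate it was -0.36, and at a split at 2 FPKM it was -0.43 in the lower and -0.19 in the higher class. The split at 4 FPKM gave -0.28 in the lower class and 0.11 in the higher class, which holds 2 naive and 2 expert libraries. The members' median minus that of genes of like abundance was -0.15, with -0.14 after rescaling, -0.24 with the covariate, -0.21 in the higher class at 2 FPKM and 0.15 in the higher class at 4 FPKM. This gap was nearer to level with a filter of 5 FPKM (-0.08) or 20 FPKM (-0.06) and after quantile normalization (-0.08). With copies summed, which left 579 genes of like abundance, the gap was -0.10. It thus depends on which genes are taken as of like abundance. Fitted means in expert libraries were higher for 9 of 9 endothelial markers (median 0.63), 6 of 6 pericyte and smooth muscle markers (0.42) and 12 of 12 astrocyte markers (0.20), and lower for 9 of 10 neuron markers (-0.20). None of these was called, and their part in the members' values was not tested. Groups did not overlap for 0 members and for 0.0782% of all genes.

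Rps15a was the 1 member lower at an unadjusted p under 0.05 (1.23% of members, 1.43% of all genes), and Rps4l the 1 higher (also 1.43% of all genes). Rps15a ranged from 7.72 to 14.8 FPKM (median 10.2) in naive, from 7.18 to 11.6 FPKM (median 10.1) in novice and from 4.17 to 9.56 FPKM (median 7.34) in expert libraries. Expert 3 was the lowest library and the groups overlapped. The log2 fold change was -0.46 (SE 0.21, unadjusted p = 0.0394), and limma's Benjamini-Hochberg adjusted p was 0.9996. Summed with its pseudogenes it was -0.62 (SE 0.25). Rps18 had -0.37 (SE 0.35), Rpl29 -0.27 (SE 0.23) and Rpl15 -0.26 (SE 0.22), all short of the threshold.

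The third comparison set fully trained against briefly trained mice. Members were about level: the fitted mean was higher in expert libraries for 48 and lower for 33 of the 81 (40.7% lower, against 59.6% of all genes and 33.6% of genes of like abundance; 59.3% higher, against 40.4% of all genes). The members' median log2 fold change was 0.04, with 0.03 for the large and 0.10 for the small subunit, while genes of like abundance had a median of 0.25. The members' median was negative within the background classes, with -0.36 in the lower and -0.20 in the higher class. In the lower class the background was 2.46 to 2.81 FPKM in novice and 0.307 to 3.34 FPKM in expert libraries, so it was not equalized. The members' median was also negative after centring on abundant genes (-0.14) and with age (-0.04) or the background (-0.34) as a covariate. The same held without Expert 2 (-0.09), Novice 5 (-0.08), Novice 6 (-0.06) or Novice 3 (-0.02). The astrocyte markers had a higher fitted mean in expert libraries in 12 of 12 (median 0.81) and the endothelial ones in 9 of 9 (0.54), none called, and their part was not tested. Limma called 0 of 81 members and 0 of 21745 genes (0%), the smallest adjusted p of a member was 0.45, and 0 members passed an unadjusted p of 0.05, against 5.97% of all genes on the lower and 4.88% on the higher side. Groups did not overlap for 0 members, against 0.432% of all genes. Rpl4, at 0.41 (SE 0.41), and Rps9, at 0.31 (SE 0.36), were among the 4 higher members with the smallest p, as was Rpl30. Rpl35a had -0.32 (SE 0.32) and Rpl29 -0.26 (SE 0.23) on the lower side.

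**Figure D4:**
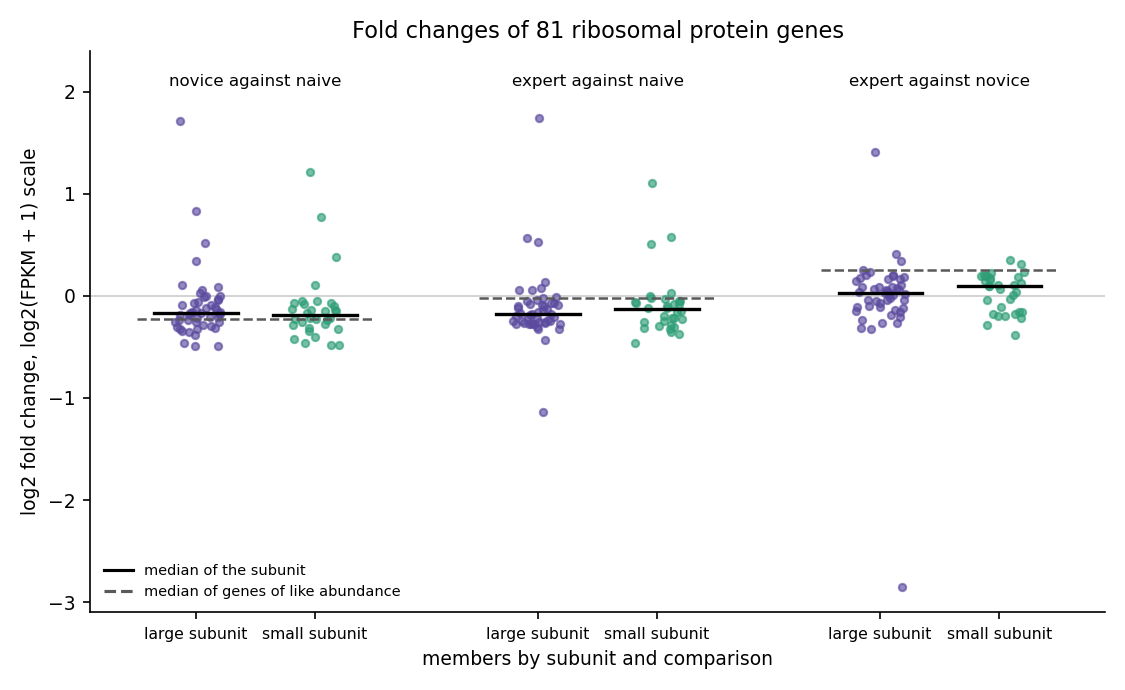
Log2 fold change of each member on the log2(FPKM + 1) scale, by subunit, for the 3 comparisons, with the subunit median (solid bar) and the median of 1036 genes of like abundance (dashed line). Most members lie within 0.5 of 0 in each comparison, the medians of the subunits differ by at most 0.07, and the far points include Rpl26, Rpl30 and Rps27, whose near-identical copies are listed separately.

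Large and small subunits had similar median changes in each comparison. The median of the large minus that of the small subunit was 0.02, -0.05 and -0.07 in the 3 comparisons, in the order given here, with no test, and each sign changed under at least 2 of the other settings tried. The largest fold changes belonged to genes with near-identical copies and were not kept by the sums. Rps27 alone had 1.21 in novice and 1.10 in expert against naive libraries (SE 2.04), and summed with Rps27rt it had -0.18 and -0.30 (SE 0.45). Rpl26 alone had 1.71 for novice against naive and -2.85 for expert against novice (SE 1.55), and summed -0.21 and 0.04 (SE 0.47). Rpl30 alone had 1.74 for expert against naive (SE 1.07), and summed -0.20 (SE 0.36). The standard error of a member's log2 fold change had a median of 0.38 (quartiles 0.33 and 0.45), which is larger than the members' median changes.

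The machinery that works with the ribosome also had 0 called genes in each comparison (limma, with Benjamini-Hochberg adjustment). Its counts stand beside a lower fitted mean in 43.0%, 56.1% and 59.6% of all genes in the 3 comparisons, in the order above. For genes of like abundance to the members the shares were 69.5%, 53.0% and 33.6%, with medians of -0.23, -0.02 and 0.25. Whether the lists differ from other abundant genes was not tested. Of 45 translation factors, 38 had a lower fitted mean in novice than in naive libraries (median -0.19), 15 were lower in expert than in naive (median 0.07) and 7 lower in expert than in novice (median 0.27). Eif4a1, the helicase that unwinds 5′ ends, and Eif4g1, the scaffold of the cap complex, had the smallest p in novice libraries, each at -0.46 (SE 0.23 and 0.26). Eif3j1, a loosely bound subunit of eIF3, had 1.57 (SE 0.52) in expert against naive libraries. Of 61 ribosome assembly genes, 34, 29 and 25 were lower in the 3 comparisons, in the same order, with medians of -0.07, 0.02 and 0.09. Nhp2, of the box H/ACA particles that guide pseudouridylation, had -1.04 (SE 0.37) and Pno1, a maturation factor of the small subunit, -0.66 (SE 0.24) in novice libraries. Of 34 genes of mTOR and TOP regulation, 24, 13 and 7 were lower, with medians of -0.16, 0.06 and 0.26. Akt1s1 (PRAS40) and Tsc2, both inhibitors of mTORC1, had -0.77 (SE 0.23) and -0.55 (SE 0.25) in novice libraries, and Ddit4, another inhibitor, had 1.55 (SE 0.47) in expert against naive libraries. Genes named so far from these lists were picked for their small p, so they do not stand for their list, and none was called. The 53 nuclear oxidative phosphorylation genes had medians of -0.37, -0.03 and 0.30. The 6 other genes tested for their ribosomal protein names or roles, Rpl7l1 among them, had medians of -0.22, -0.11 and 0.13. Of these, Fau had -0.16 (SE 0.42) in expert against naive libraries. Comparisons that share a group share its libraries, so the naive libraries enter the first and the second, and the novice libraries the first and the third.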

How the data were processed

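Gene expression was measured in 18 libraries (SMARTer stranded total RNA kit, per the labels' protocols). The authors deposited FPKM values, made with TopHat and Cufflinks on mm9 per the submitters' processing notes. No source used here gives versions, the annotation or any scaling between libraries. Of 23951 table entries, 27 with date-like names were left out. The 21745 genes reaching 1 FPKM in 6 or more libraries were fitted on log2(FPKM + 1) with limma 3.58.1 in R 4.3.3 (trended eBayes, 3 groups, 1 fit, two-sided, Benjamini-Hochberg adjustment, threshold 0.05), after a test on simulated data. Folds are on that scale and understate changes of low genes. Copies were sought by blastn (at least 97% identity over at least 80% of the copy) among GENCODE M21 transcripts of genes in the table. Named members follow a rule: the 4 smallest p per direction and comparison, the 4 highest means per subunit, the 4 most variable, means under 10 FPKM, fixed roles and paralogs. Genes named from the lists of translation factors, ribosome assembly and mTOR and TOP regulation were among those with the smallest p of their list in a comparison. Rpl7a, Rpl34 and Rps27rt were named after their values were seen. Some items that the rule or lists hold are not reported here. Members and lists were chosen with earlier results of these data known. Alternatives were other pseudocounts, filters, scalings, covariates, background classes, a replicate block, sums with copies and left-out libraries.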

Additional observations from a re-analysis of the deposited data

Results flagged for a closer look

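The lowest and highest value of each tested group of 6 libraries was compared with its nearest neighbour, as a share of the group's range, on the log2(FPKM + 1) scale. Of 120 groups (named members and library summaries in each of the 3 groups) 2 passed the critical value of Dixon's test for 6 values, and chance alone passes about 1 in 20. Rpl26 in novice libraries had a gap share of 0.726, because Novice 4 was listed at 0.00760 FPKM while the other novice libraries stood at 26.8 to 96.4 FPKM. In Novice 4 its pseudogene Gm15772 stood at 674 FPKM. Rps27l in naive libraries had a gap share of 0.749, because Naive 4 stood at 3.26 FPKM and the others at 19.7 to 34.3 FPKM. Without Naive 4 the log2 fold change of Rps27l for expert against naive was 0.06, against 0.50 with it.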

How the results depend on the processing

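No member passed the threshold under any setting run. Over all genes, 0 were called except within background classes: 4 for expert against naive at lower background (split at 2 FPKM), and at higher background (split at 4 FPKM, chosen after seeing the data) 4 for expert against naive, 5 for expert against novice and 3 for novice against naive. At a split of 2 FPKM the lower class holds no novice library, so its novice comparisons could not be fitted.

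Without 1 library at a time, the members' median log2 fold change was -0.37 (without Naive 6) to -0.06 (without Naive 2) for novice against naive, -0.34 to 0.02 for expert against naive and -0.09 to 0.21 for expert against novice. Without Novice 1 and Novice 3 it was -0.26 for novice against naive. Shifts stayed within the SD between libraries of 1 group, which was 0.62 for the members' median. That SD is larger than the median fold changes themselves, so shifts that changed their sign also stayed within it.

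Single members with the smallest p that changed sign, none past the threshold, were as follows, and the cause was not tested except for sums with copies, which add the copy's value. Rescaling to a common total gave 0.0232 for Rpl15 and 0.0171 for Rpl29 (expert against naive). Sums with copies gave -0.21 (novice against naive) and 0.0377 (expert against novice) for Rpl26 and -0.20 (expert against naive and expert against novice) for Rpl30. Rps27, not among them, gave -0.18 (novice against naive) and -0.30 (expert against naive) summed with its copy, against 1.21 and 1.10 alone. Lower background gave -0.45 (expert against naive, split at 2 FPKM) and -0.35 (novice against naive, split at 4 FPKM) for Rpl3l. Rpl4 gave 0.14 for novice against naive at lower background and, for expert against novice, -0.0869 with the background covariate, -0.0214 at higher (split at 2 FPKM) and -0.30 at lower background. For expert against novice, Rps9 gave -0.16 with the covariate, -0.0801 (split at 2 FPKM) and -0.0578 (split at 4 FPKM) at higher background.

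With the replicate number as a block, 0 genes were called in each comparison and the members' medians stayed at -0.17, -0.16 and 0.04. For expert against novice, limma's smallest Benjamini-Hochberg adjusted p over all genes was 0.0866 with the block and 0.449 without it. Deviations of same-numbered libraries from their group means had correlations of -0.36 to 0.46. These were 0.30 to 0.46 for number 2 and 0.20 to 0.33 for number 5, and not over 0.1 in every pair for the other numbers. Such correlations cannot settle whether the numbers pair the libraries, since library background also enters them. FPKM alone hold no depth, and low members lie near the background.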
